A study of Mus musculus with 6 samples.

Results

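Collagens are the main structural proteins of the extracellular matrix, and each molecule is a triple helix of chains encoded by these genes. Of the 54532 genes in the deposited count table, 44 were protein-coding genes whose symbol is Col, a number, the letter a and a second number, and all 44 are described here. They fall into 11 fibrillar collagens, 9 network collagens, 9 fibril-associated collagens, 6 type VI collagens, which form beaded filaments, and 9 others.

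RNA was sequenced from TM3 cells, an established mouse cell line that the labels place in the testis and call Leydig cells, the cells that make testosterone. The tested cells overexpressed A20, a ubiquitin-editing inhibitor of NF-kB signalling encoded by Tnfaip3 (3 libraries). They were set against control cells of the same line (3 libraries), which the labels title O/E control, read here as overexpression control, and give as wild type. The sources used here do not give the means of overexpression, the species of the A20 sequence, whether a group was a single clone, or whether its libraries were grown apart. The p-values therefore measure the spread between these libraries, which may be technical.

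Fibrillar collagens pack side by side into the fibrils that give connective tissue its tensile strength. Network collagens such as type IV build the sheet of basement membranes, which in the testis surround the seminiferous tubules, and fibril-associated collagens sit on the surface of fibrils. Procollagen chains are hydroxylated and folded in the endoplasmic reticulum with dedicated chaperones, secreted, trimmed by proteases and crosslinked by lysyl oxidases.

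Total counts were 16917979, 15654179 and 15097570 in the A20 libraries and 15349354, 14346445 and 13841287 in the control libraries. Levels are given as CPM, the share of a library's total count scaled to a common size. Where a gene had no count, the limit that 3 counts would give was 0.177 to 0.217 CPM by library, which covers counting error only. Tnfaip3 had 41.0, 33.7 and 43.6 CPM in A20 libraries, against 30.9, 11.9 and 15.2 CPM in control libraries 1, 2 and 3. Its log2 fold change, A20 overexpression over control, did not pass the test with all libraries (1.08, edgeR adjusted p = 0.331). It passed without control replicate 1 (1.505, edgeR adjusted p = 0.000256). Control replicate 1 stood apart from the other 5 libraries. The chi-square per degree of freedom between its counts and those of another library was 120 to 139, against 8.87 to 49.8 among the other 5. The summed level of 7 Leydig cell markers was 5.26, 7.86 and 6.03 CPM in A20 libraries, against 2039, 3.97 and 6.29 CPM in control libraries. Of these 7, Cyp17a1, Hsd3b1 and Lhcgr, which mark steroid-making Leydig cells, had no count outside control replicate 1. Cyp17a1 had only 24 counts there. In the other 5 libraries Cyp11a1 had 0 to 2 counts, Nr5a1 1 to 9, Insl3 6 to 44 and Star 38 to 71. Star and Insl3 were therefore low but present in the other 5 libraries. The tests across genes were therefore run with all 6 libraries and again without control replicate 1.

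The 250 bases before the RefSeq transcription start (GRCm38) were available for 35 of the 44 genes, in 38 windows. Shown are 4 windows with no base in an annotated exon, chosen with the results known. Of the genes called without control replicate 1, Col12a1 had no window, and 124 bases of the Col6a1 window lay in an annotated exon. Col11a1 rose in the comparison without control replicate 1, Col6a2 is the partner chain of a gene that fell there, Col3a1 is an abundant fibrillar gene, and Col4a6 was high in control replicate 1. They lie at chr3:114030290-114030539 (plus strand), chr10:76623631-76623880 (minus strand), chr1:45311288-45311537 (plus strand) and chrX:141474077-141474326 (minus strand), in that order, and are written 5′ to 3′ on the strand of the gene. Capitals mark matches, on either strand, to the letters searched for.
Col11a1: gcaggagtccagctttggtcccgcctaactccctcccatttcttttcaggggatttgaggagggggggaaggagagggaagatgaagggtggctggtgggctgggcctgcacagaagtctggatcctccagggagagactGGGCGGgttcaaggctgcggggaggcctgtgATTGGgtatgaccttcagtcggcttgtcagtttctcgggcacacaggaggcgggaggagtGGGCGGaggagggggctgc
Col6a2: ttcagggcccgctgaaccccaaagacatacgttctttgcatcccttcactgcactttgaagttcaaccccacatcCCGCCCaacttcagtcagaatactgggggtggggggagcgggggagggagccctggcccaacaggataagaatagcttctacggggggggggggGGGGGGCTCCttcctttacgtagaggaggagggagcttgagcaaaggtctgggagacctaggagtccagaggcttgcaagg
Col3a1: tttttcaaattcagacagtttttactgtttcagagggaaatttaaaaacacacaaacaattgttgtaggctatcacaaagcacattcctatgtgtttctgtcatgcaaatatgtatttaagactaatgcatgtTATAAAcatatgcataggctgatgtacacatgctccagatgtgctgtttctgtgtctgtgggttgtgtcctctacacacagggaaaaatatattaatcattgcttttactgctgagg
Col4a6: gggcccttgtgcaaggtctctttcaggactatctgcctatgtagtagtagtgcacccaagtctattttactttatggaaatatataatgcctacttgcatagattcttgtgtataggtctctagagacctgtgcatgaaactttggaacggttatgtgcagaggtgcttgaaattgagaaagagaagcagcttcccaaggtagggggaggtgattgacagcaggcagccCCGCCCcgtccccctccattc

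Both strands were searched for 5 short strings and the NF-kB consensus. GGGCGG, the core bound by Sp1, was in 22 of the 38 collagen windows and in 33.0% of 32536 promoter windows of all genes. CCAAT was in 13 of 38 windows and in 33.8% of all windows. TATAAA was in 5 windows and in 12.3% of all. TGACTCA, the AP-1 string, was in 1 window, that of Col6a1, and in 4.45% of all. CAAGGTCA, a string bound by the steroidogenic factor encoded by Nr5a1, was in 2 windows, those of Col7a1 and Col9a1, and in 1.33% of all. The NF-kB consensus was in 6 windows (7.28% of all), those of Col27a1, Col4a2, Col6a2, Col6a4, Col9a1 and Col9a2. Another window of Col6a2 and another of Col9a1 held no such match. All 250 bases of the Col4a2 and Col6a4 windows, and 181 of the Col9a2 window, lay in an annotated exon. In the windows printed, Col11a1 held GGGCGG at 2 places and CCAAT at 1, Col3a1 held TATAAA, Col4a6 held GGGCGG, and Col6a2 held GGGCGG and the NF-kB consensus. In the 38 windows, 1 pair of matches to different letters overlapped. A match describes letters only, and binding was not measured.

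The 44 genes held 2.40%, 2.43% and 2.44% of all counts in A20 libraries, against 0.739%, 1.96% and 2.37% in control libraries 1, 2 and 3. Together they had 24006, 24304 and 24356 CPM in A20 libraries, against 7393, 19559 and 23719 CPM in control libraries 1, 2 and 3. The mean was 24222 ± 189 CPM in A20 libraries and 16890 ± 8484 CPM in control libraries (SD, n = 3 each), and 21639 ± 2942 CPM in control replicates 2 and 3 (SD, n = 2). The groups did not overlap, but control replicate 3 lay close to the lowest A20 library and control replicate 1 far below the rest. The A20-to-control ratio of mean summed levels was 1.43 with all libraries and 1.12 without control replicate 1.

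Col1a1, Col1a2 and Col3a1, which encode the chains of type I and type III collagen, made up 69.3%, 68.8% and 67.9% of collagen counts in A20 libraries, against 54.4%, 66.5% and 67% in control libraries. At the other end, 6 genes had no count in any library (Col24a1, Col8a2, Col9a1, Col19a1, Col6a4 and Col25a1), and these are among 15 genes that stayed under 1 CPM in every library. The other 9 of these 15 were Col2a1, Col10a1, Col9a2, Col6a5, Col6a6, Col28a1, Col23a1, Col17a1 and Col26a1. Another 6 genes reached 1 CPM in control replicate 1 alone. The remaining 23 genes passed the expression filter and were tested.

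**Figure D1:**
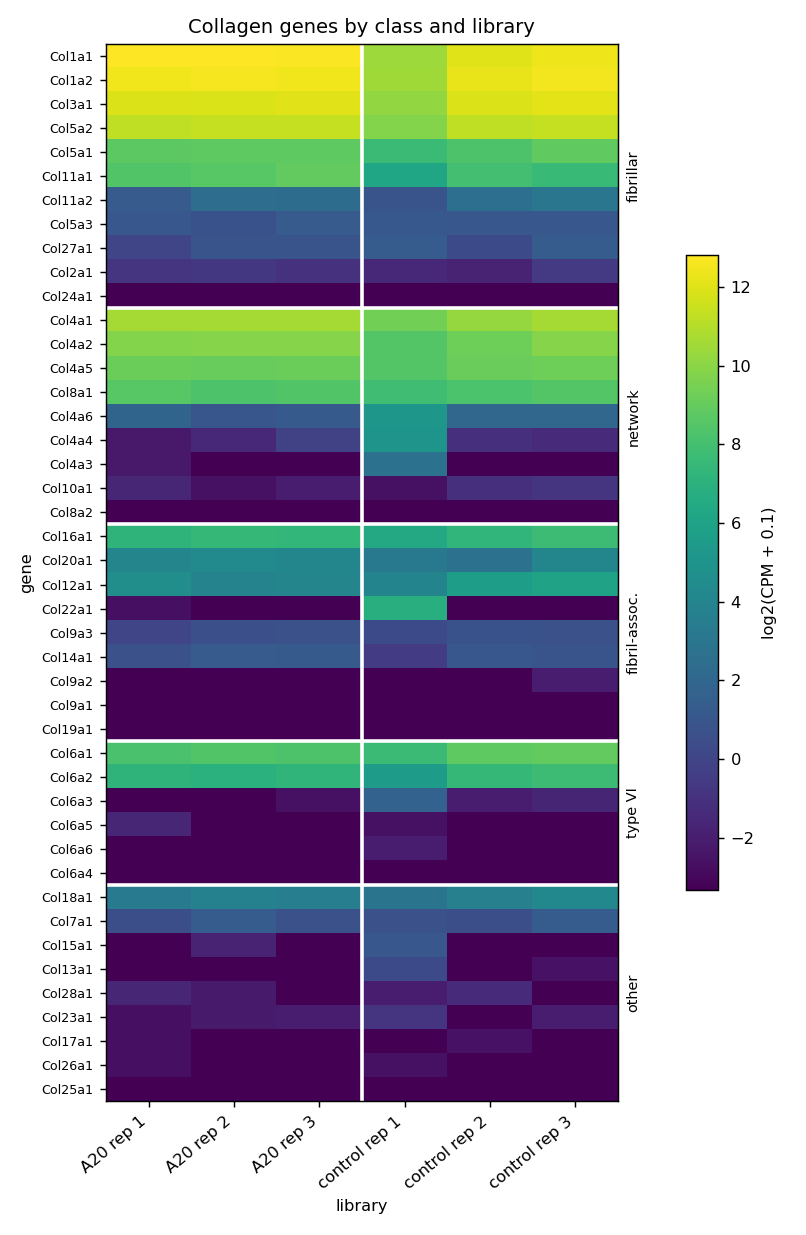
Level of all 44 collagen genes (vertical, grouped by class) in each library (horizontal, A20 overexpression left of control), coloured by log2(CPM + 0.1). Col1a1, Col1a2 and Col3a1 are bright in every library, while Col22a1, Col4a3 and Col4a4 stand out in control replicate 1.

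With all 6 libraries, edgeR's quasi-likelihood test with Benjamini-Hochberg adjustment called 0 of the 23 collagen genes at 0.05, against 2 of 13350 genes in all (0.015%), 1 higher and 1 lower (0.00749% each). DESeq2 and limma-voom also called 0 collagen genes. At an unadjusted p under 0.05, 3 of the 23 passed (Col11a1, Col4a6 and Col12a1), where 10% of all genes did: 1 was higher (background 4.19%) and 2 were lower (background 5.86%) in A20 libraries. The CPM of the groups did not overlap for 4 genes: Col1a1, Col11a1 and Col4a1 were higher (background 7.62%) and Col4a6 lower (background 9.27%) in A20 libraries, where 16.9% of all genes did not overlap. The median log2 fold change, A20 overexpression over control, was 0.15 over the 23 genes and -0.03 over all genes tested.

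Without control replicate 1, the same test called 3 of the 23 collagen genes, against 628 of 13658 genes in all (4.6%). Col11a1 rose (background for higher 1.92%), and Col12a1 and Col6a1 fell (background for lower 2.68%). At an unadjusted p under 0.05, 6 of 23 passed (background 21.6%), 2 higher (10.4%) and 4 lower (11.2%). The groups did not overlap for 8 genes (background 37.9%): Col1a1, Col11a1 and Col4a1 were higher (20.7%) and Col11a2, Col4a6, Col12a1, Col6a1 and Col6a2 lower (17.2%) in A20 libraries. The median log2 fold change was -0.10 over the 23 genes and -0.002763 over all genes.

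**Figure D2:**
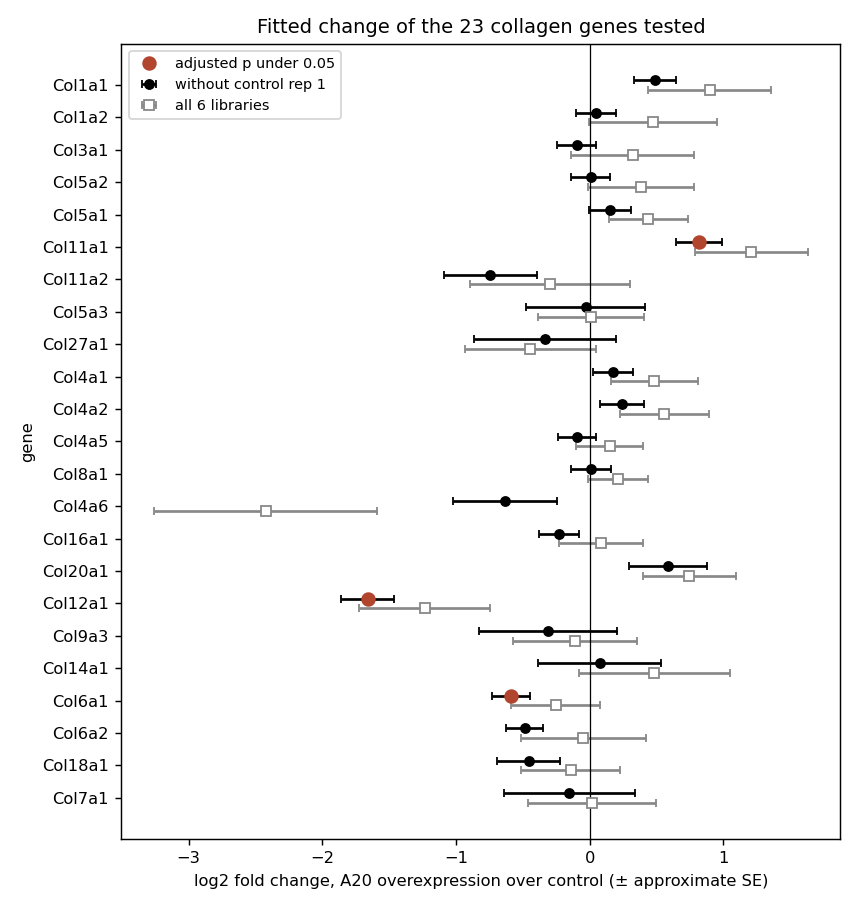
Log2 fold change, A20 overexpression over control (horizontal, ± approximate SE), of the 23 collagen genes tested (vertical); filled circles leave out control replicate 1, open squares use all 6 libraries, and red marks an adjusted p under 0.05. Col11a1, Col12a1 and Col6a1 are red, and the error bars with all 6 libraries are wider for most genes.

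Among fibrillar collagens, 9 of 11 genes were tested. With all libraries 0 were called, and without control replicate 1 Col11a1 rose and 8 did not pass the test. Col11a1 encodes the alpha 1 chain of type XI collagen, a minor fibrillar collagen that helps set fibril diameter (chromosome 3, plus strand, 114030540 to 114220718, GRCm38). It had 349, 384 and 483 CPM in A20 libraries, against 73.4, 249.957 and 198 CPM in control libraries 1, 2 and 3. All A20 libraries were above all control libraries. Its log2 fold change was 0.82 ± 0.17 without control replicate 1 (edgeR adjusted p = 0.0135) and 1.21 ± 0.42 with all libraries (adjusted p = 0.433). The call without control replicate 1 was lost when A20 replicate 2 (adjusted p = 0.0646) or A20 replicate 3 (adjusted p = 0.105) was also left out. In all, 5 of 15 alternative settings lost it, limma-trend among them. Col11a2, the partner chain of type XI, was low, with 2.36, 5.24 and 5.10 CPM in A20 libraries, against 1.69, 5.86 and 8.02 CPM in control libraries, and did not pass the test.

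Col1a1, the main chain of type I collagen, had the highest mean FPKM (counts per length, scaled by library) of the 44 genes outside control replicate 1, though Col1a2 ranked above it when lengths of the longest coding transcripts were used. It had 7149, 6892 and 6641 CPM in A20 libraries, against 1410, 4181 and 5461 CPM in control libraries. Every A20 library was above every control library, but the log2 fold change was 0.90 ± 0.46 with all libraries (edgeR adjusted p = 0.548) and 0.49 ± 0.16 without control replicate 1 (adjusted p = 0.0803). DESeq2 called it in that comparison (adjusted p = 0.0157). Col1a2, the second chain of type I collagen, had 5564, 6005 and 5632 CPM in A20 libraries, against 1437, 4912 and 5947 CPM in control libraries. Its groups overlapped, with a log2 fold change of 0.05 ± 0.15 without control replicate 1 (edgeR adjusted p = 0.892) and 0.48 ± 0.48 with all libraries (adjusted p = 0.772).

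Col3a1, whose product forms type III fibrils, had 3935, 3824 and 4262 CPM in A20 libraries, against 1172, 3909 and 4473 CPM in control libraries. Control replicates 2 and 3 lay within or above the A20 range, and control replicate 1 well below it. The type V chains, which help to start type I fibrils, did not pass either test. Col5a2 had 2501 to 2692 CPM in A20 libraries, against 914, 2434 and 2673 CPM in control libraries. Col5a1 had 424 to 455 CPM in A20 libraries, against 205, 322 and 460 CPM in control libraries. Exons of Col5a1 share 113 bases with Gm13372 on the opposite strand, which had 220 to 254 counts in A20 libraries and 108 to 218 counts in control libraries, and whether counting used strand is not given in the sources used here. Col5a3 and Col27a1 lay between 0.946 and 2.54 CPM in all libraries.

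**Figure D3:**
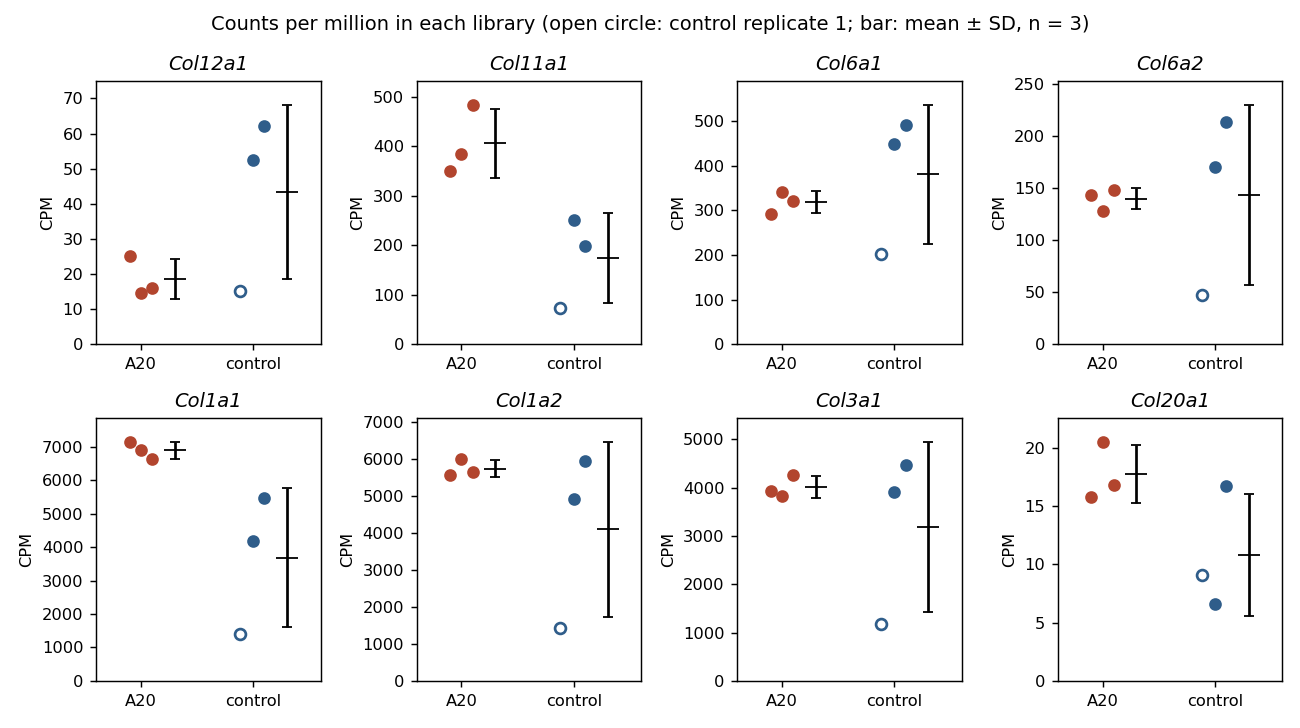
CPM (vertical, linear from 0) of 8 collagen genes in each A20 library (left) and control library (right); the open circle is control replicate 1 and the bar is the mean ± SD of 3 libraries. Col12a1 is lower in A20 libraries than in control replicates 2 and 3, and control replicate 1 is the lowest control in 7 of the 8 panels.

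Network collagens had 5 of 9 genes tested, and 0 were called in either fit (unadjusted p under 0.05 for 1 gene, Col4a6, with all libraries and for 0 without control replicate 1). Without control replicate 1, DESeq2 and limma-voom called none of these 5 either. Col4a1, which with Col4a2 forms the common type IV collagen of basement membranes, had 1597, 1582 and 1618 CPM in A20 libraries, against 661, 1213 and 1566 CPM in control libraries. The A20 libraries lay above all control libraries, by little over control replicate 3. Its log2 fold change was 0.17 ± 0.15 without control replicate 1 (edgeR adjusted p = 0.539) and 0.48 ± 0.32 with all libraries (adjusted p = 0.646). Col4a2 had 887, 928 and 954 CPM in A20 libraries, against 359, 605 and 927 CPM in control libraries. These genes lie head to head on chromosome 8 with 5′ ends 21 bases apart, and share 22 exon bases.

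Col4a5, a chain of minor type IV networks, had 573, 525 and 590 CPM in A20 libraries, against 356, 563 and 613 CPM in control libraries. Col8a1, a chain of type VIII collagen, had 311 to 387 CPM in A20 libraries and 230 to 366 CPM in control libraries, while its partner Col8a2 had no count in any library. Both overlapped between the groups.

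Some type IV chains were higher in control replicate 1 than in the other libraries. Col4a6 had 3.55, 1.85 and 2.25 CPM in A20 libraries, against 36.7, 3.90 and 3.83 CPM in control libraries. Its log2 fold change of -2.43 ± 0.83 with all libraries (edgeR adjusted p = 0.433) became -0.63 ± 0.39 without control replicate 1 (adjusted p = 0.366). Col4a4 had 2, 4 and 12 counts in A20 libraries, against 507, 5 and 4 counts in control libraries. Col4a3 had 2, 0 and 0 counts in A20 libraries, against 104, 0 and 0 counts in control libraries. Col4a3 and Col4a4 share a bidirectional arrangement on chromosome 1 with 5′ ends 72 bases apart, and Col4a5 and Col4a6 one on chromosome X with 5′ ends 1309 bases apart.

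Fibril-associated collagens had 5 of 9 genes tested. With all libraries 0 were called, and without control replicate 1 Col12a1 fell and 4 did not pass. Col12a1 encodes type XII collagen, which decorates type I fibrils in tendon and fascia (chromosome 9, minus strand, 79598991 to 79718831). It had 25.0, 14.5 and 16.1 CPM in A20 libraries, against 15.2, 52.5 and 62.3 CPM in control libraries. A20 libraries were below control replicates 2 and 3, and control replicate 1 lay inside the A20 range. The log2 fold change was -1.66 ± 0.20 without control replicate 1 (edgeR adjusted p = 0.000161) and -1.24 ± 0.49 with all libraries (adjusted p = 0.472). The call without control replicate 1 held when any further library was left out (edgeR adjusted p from 8.94e-05 to 0.0135). It was lost with limma-trend on log2(FPKM + 1) when a mean FPKM of at least 1 was required (adjusted p = 0.0579).

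Col16a1, a fibril-associated collagen with interrupted helices, had the highest mean FPKM of its class outside control replicate 1, at 142, 174 and 163 CPM in A20 libraries, against 86.1, 158 and 209 CPM in control libraries. Col20a1 had 15.8, 20.5 and 16.8 CPM in A20 libraries, against 9.06, 6.62 and 16.7 CPM in control libraries, with an edgeR adjusted p of 0.264 without control replicate 1 and 0.521 with all libraries. Col22a1, which marks tissue junctions such as the myotendinous junction, had 1, 0 and 0 counts in A20 libraries, against 1774, 0 and 0 counts in control libraries. Nearly all of its counts were in control replicate 1. Col9a3 and Col14a1 lay between 0.586 and 2.36 CPM in all libraries.

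Type VI collagen had 2 of 6 genes tested, of which 0 were called with all libraries and 1, Col6a1, without control replicate 1. Col6a1 (chromosome 10, minus strand, 76708792 to 76726168) had 292, 341 and 321 CPM in A20 libraries, against 202, 448 and 490.3 CPM in control libraries. A20 libraries were below control replicates 2 and 3 and above control replicate 1. Col6a1 fell by 0.59 ± 0.14 on the log2 scale without control replicate 1 (edgeR adjusted p = 0.0248), against -0.26 ± 0.33 with all libraries (adjusted p = 0.836). That call was lost when A20 replicate 1 (adjusted p = 0.149), 2 (0.0635) or 3 (0.156) was also left out. In all, 7 of 15 alternative settings lost it, limma-trend among them.

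Col6a2, its partner chain, had 143, 129 and 148 CPM in A20 libraries, against 47.2, 170.4 and 214 CPM in control libraries. Its log2 fold change without control replicate 1 was -0.49 ± 0.14 (edgeR adjusted p = 0.0566), and DESeq2 called it (adjusted p = 0.022). With all libraries it was -0.05 ± 0.47 (edgeR adjusted p = 0.98). Col6a3, the third chain of common type VI microfibrils, had 0, 0 and 1 counts in A20 libraries, against 49, 2 and 3 counts in control libraries. The summed type VI level was 436, 470 and 470 CPM in A20 libraries, against 253, 618 and 704 CPM in control libraries.

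Of the 9 other collagens, 2 were tested and 0 were called in either fit (unadjusted p under 0.05 for 0 of 2 in both). Col18a1, a basement membrane collagen whose end fragment is endostatin, had 9.34, 13.5 and 11.9 CPM in A20 libraries, against 7.43, 12.8 and 18.4 CPM in control libraries. Col7a1, the anchoring fibril collagen of skin, had 1.36 to 2.49 CPM in A20 libraries and 1.39 to 2.53 CPM in control libraries. Col15a1 had 0, 3 and 0 counts in A20 libraries, against 30, 0 and 0 counts in control libraries. Col13a1 had 0 counts in each A20 library, against 17, 0 and 1 counts in control libraries.

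Partner chains can assemble into the same molecule, and the ratio of partner chains was compared on the FPKM scale, which divides by gene length. Col1a1 over Col1a2 was 2.43, 2.17 and 2.23 in A20 libraries, against 1.86, 1.61 and 1.74 in control libraries. The groups did not overlap, and the log2 ratio differed by 0.39 (exact two-sided permutation test, p = 0.1, the smallest that 3 against 3 allows, and 0.4 after Benjamini-Hochberg adjustment over 4 pairs). Without control replicate 1 the difference was 0.44. The deposited lengths of Col1a1 and Col1a2 are 6563 and 12426 bases, whereas their longest coding transcripts in GENCODE M21 have 5930 and 5348. With both transcript lengths the ratio was 1.16, 1.03 and 1.06 in A20 libraries, against 0.885, 0.768 and 0.828 in control libraries. The order of the chains thus turned in the control libraries and stayed in the A20 libraries. A gene's length is the same in every library, so the log2 difference between the groups is unchanged by construction.

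Col4a1 over Col4a2 was 1.6, 1.51 and 1.5 in A20 libraries, against 1.63, 1.78 and 1.5 in control libraries (exact permutation p = 0.4). Col5a1 over Col5a2 was 0.191, 0.191 and 0.189 in A20 libraries, against 0.253, 0.149 and 0.194 in control libraries (exact permutation p = 0.7). Col6a1 over Col6a2 was 3.87, 5.05 and 4.13 in A20 libraries, against 8.14, 5.0 and 4.36 in control libraries (exact permutation p = 0.3). These 3 ratios overlapped between the groups. Their log2 differences were -0.09, -0.03 and -0.38 with all libraries and -0.09, 0.16 and -0.11 without control replicate 1, in the order given.

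**Figure D4:**
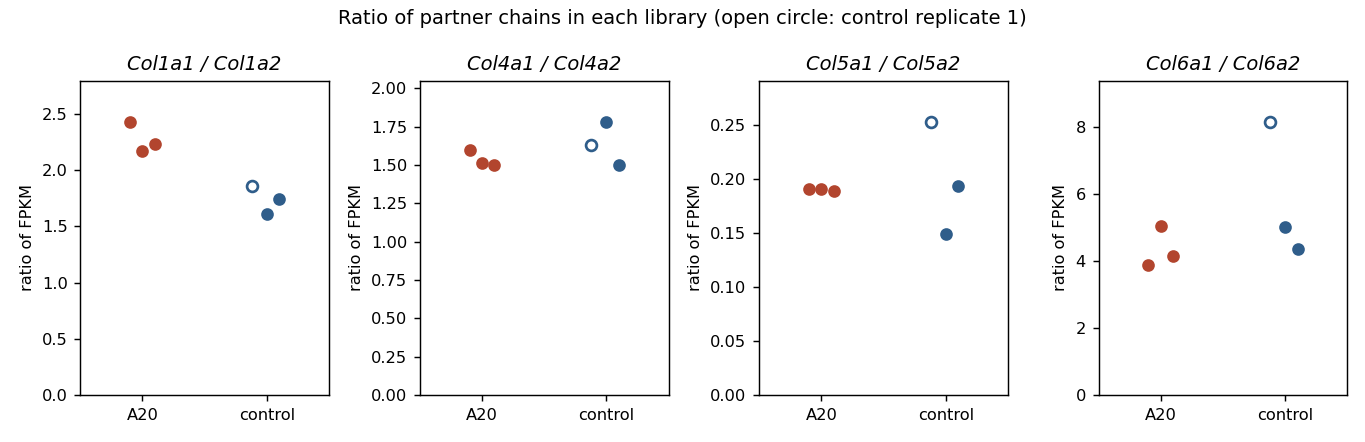
FPKM ratio (vertical, linear from 0) of 4 pairs of partner chains in each A20 library (left) and control library (right), with control replicate 1 as an open circle. Col1a1 over Col1a2 lies between 2.17 and 2.43 in A20 libraries and between 1.61 and 1.86 in control libraries, and the other pairs overlap.

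The largest spread among collagen genes lay inside the control group. In control replicate 1, 16 of the 23 tested genes (69.6%) were below each of the other 5 libraries, against 21.7% of all genes, and 2 were above each (background 40.7%). The median log2 ratio of control replicate 1 to the mean of the other 5 libraries was -1.05 over the collagens and 0.14 over all genes. More than 2-fold lower were 12 collagens (background 6.5%), and among the 23 tested 1, Col4a6, was more than 2-fold higher (background 13.7%). Past 4-fold, 2 tested collagens were lower (background 1.1%) and Col4a6 was higher (background 3.5%). The 6 genes that reached 1 CPM in control replicate 1 alone (Col22a1, Col4a3, Col4a4, Col6a3, Col15a1 and Col13a1) did not pass the filter and are not in these counts. By class, 7 of 9 fibrillar, 4 of 5 network, 2 of 5 fibril-associated, 2 of 2 type VI and 1 of 2 other collagens were below each of the other libraries. In control replicate 3, 10 of the 23 tested collagens were above each of the other libraries, against 1987 of 13350 genes. Col12a1, Col6a1 and Col6a2 were among those 10.

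**Figure D5:**
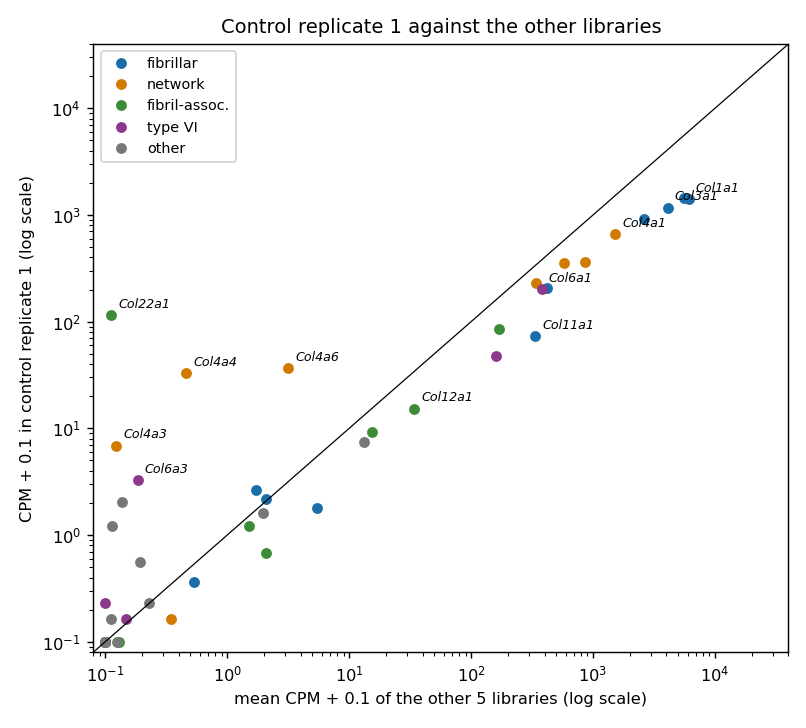
CPM + 0.1 of each of the 44 collagen genes in control replicate 1 (vertical, log scale) against the mean of the other 5 libraries (horizontal, log scale), coloured by class, with the line of equality. The abundant fibrillar genes lie below the line, and Col22a1, Col4a3, Col4a4 and Col4a6 lie above it.

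Markers of other cell types were read in the same libraries. Of 5 fibroblast markers 2 were tested, and their sum was 164 to 178 CPM in A20 libraries and 126 to 164 CPM in control libraries. Most of it was Pdgfra, and Lum and Dpt were at 0 in all 6. Of 5 peritubular myoid markers 4 were tested, and their sum was 38.2 to 47.2 CPM in A20 libraries, against 90.9, 42.1 and 60.3 CPM in control libraries. In control replicate 1 most of this sum was Acta2 (77.6 CPM). Actg2 (2.22 CPM) and Myh11 (0.586 CPM) were also highest there. Des was lowest there (6.58 CPM, against 14.7 to 19.3 CPM), and Cnn1 (3.91 CPM) lay within the range of the other libraries. Of 6 Sertoli cell markers 1 was tested, Wt1. Their sum was 121 to 139 CPM in A20 libraries and 81.8 to 152 CPM in control libraries. Nearly all of it was Wt1, and Sox9 and Fshr were at 0. Endothelial markers (0 of 5 tested) summed to 0.265 to 0.639 CPM in A20 libraries, against 35.6, 0.139 and 0.217 CPM in control libraries, mostly Cdh5. Macrophage markers (2 of 5) summed to 22.7 to 42.9 CPM in A20 libraries and 5.93 to 34.7 CPM in control libraries. Most of this was Cd68, and Adgre1 and Ptprc were at 0. Germ cell markers (2 of 5) summed to 7.95 to 12.2 CPM in A20 libraries and 6.06 to 9.38 CPM in control libraries, with Dazl and Acr at 0. Their part in the collagen levels was not tested, and in such bulk RNA fewer cells of a type and less RNA per cell cannot be told apart.

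Of 47 genes that modify, fold, process or bind collagen, 38 were tested. With all libraries edgeR's quasi-likelihood test called 0 (background 0.015%), with 3 at an unadjusted p under 0.05 (background 10%), limma-voom called 0 and DESeq2 called 1, where it called 183 genes in all. Without control replicate 1 edgeR called 1 (background 4.6%), Itgb1, the beta 1 integrin subunit shared by the collagen-binding integrins. Itgb1 had 2028, 1858 and 2249 CPM in A20 libraries, against 1010, 1131 and 916 CPM in control libraries. The groups were well apart, control replicate 1 included. Its log2 fold change was 0.96 ± 0.16 without control replicate 1 (edgeR adjusted p = 0.00392) and 1.02 ± 0.20 with all libraries (adjusted p = 0.205).

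None of the 13 prolyl and lysyl modification genes, the 9 folding and export genes or the 10 processing and crosslinking genes tested was called by edgeR in either fit. At an unadjusted p under 0.05, 1, 0 and 1 of them passed with all libraries (background 10%) and 1, 1 and 2 without control replicate 1 (background 21.6%). P4hb, a subunit of prolyl 4-hydroxylase, had 1538 to 1609 CPM in A20 libraries, against 1099, 1666 and 1527 CPM in control libraries. Serpinh1, the collagen chaperone HSP47, had 2561, 2579 and 2785 CPM in A20 libraries, against 1076, 2310 and 3038 CPM in control libraries. Lox, which oxidises lysines for crosslinks, had 807, 846 and 888 CPM in A20 libraries, against 231, 886 and 668 CPM in control libraries. P4hb, Serpinh1 and Lox were lowest in control replicate 1, as were the main fibrillar collagens and 21.7% of all genes tested.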

How the data were processed

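RNA of 3 A20-overexpressing and 3 control TM3 libraries was compared. Per the labels' protocols, total RNA was extracted with a column kit and sequencing libraries prepared with a SMARTER mRNA kit. The genome build was GRCm38 (mm10), per the submitters' processing notes. The aligner, counter and strand setting are not given in the sources used here. The authors deposited whole-number counts per gene, used as deposited. The FPKM values deposited by the authors equal the count divided by gene length and by 1 constant per library. They served for chain ratios, gene order and alternatives.

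CPM used each library's total count. The test was edgeR 4.0.16 (R 4.3.3), quasi-likelihood, with TMM, filterByExpr on the groups and a robust prior. P-values were adjusted by Benjamini-Hochberg across the whole filtered table (threshold 0.05). The procedure was also run on simulated counts with known changes. Those counts held no library that stood apart, so that check does not bear on control replicate 1 or on changes smaller than those simulated. SEs are approximate, the log2 fold change over the square root of F. DESeq2 1.42.0 and limma 3.58.1 were alternatives. The collagen classes, marker lists and pathway lists (1 symbol, Ctage5, was not found) were chosen with earlier results of these data known. Values per library are given for genes past the threshold in either fit and for the 3 per class with the highest mean FPKM, from each pathway list for genes past the threshold or, with none, for the gene with the highest mean FPKM; other genes were named after their values were seen. All 44 genes have the same coordinates in GENCODE M21. Of them 13 share exon bases with another annotated gene. Promoter windows are from RefSeq.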

Additional observations from a re-analysis of the deposited data

How the results depend on the processing

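With all 6 libraries, 0 collagen genes were called under other scalings, filters and tools, and leaving out 1 library gave 0 to 3 (3 without control replicate 1). Pathway calls were 0, or 1 with DESeq2, and 0 to 1 with 1 library left out. Without control replicate 1, 3 collagen genes were called; without a filter on low counts 5 were, with DESeq2 5, with limma-trend on log2(FPKM + 1) or log2(FPKM + 0.1) 1, and with a mean FPKM of at least 1 required 0 (pathway 0). Col12a1 was the call kept by limma-trend without that filter, and missed the threshold with it (adjusted p = 0.0579). Leaving out a further library gave 1 to 6 collagen and 1 to 7 pathway calls, the most without control replicate 3, where the lone control is assumed to vary like the A20 libraries. Calls over all genes were 2 with all libraries (183 with DESeq2, 23 unfiltered, 0 by library size alone or with limma, 0 to 628 with a library left out) and 628 without control replicate 1 (1173 unfiltered, 53 to 235 with limma-trend, 142 to 2423 with a library left out). The cause was not tested. For DESeq2, and for the replicate block described next, the calls over all genes without control replicate 1 are not given here. Their collagen and pathway calls in that comparison therefore have no share of all genes beside them.

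Deviations from the group means correlated at 0.05, 0.13 and -0.05 between libraries with the same number. Between libraries with different numbers they correlated at -0.196 to 0.176. The control mean includes control replicate 1, which stood apart, so these correlations cannot decide whether the numbers pair the libraries. With the replicate number as a block, 0 collagen genes were called with all libraries and 2 without control replicate 1, Col6a1 being lost (edgeR adjusted p = 0.0857), and pathway calls were 0 and 1.

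Several log2 fold changes changed sign, none of them of a gene called by edgeR with either set of libraries. With all libraries, Col5a3 was -0.02495 by library size alone, -0.006201 by limma-voom and -0.004815 with the replicate block, and Col7a1 -0.01857 by library size alone. Col6a2 was 0.25 by limma-voom, 0.21 and 0.25 by limma-trend with either pseudocount, 0.21 with the FPKM filter and 0.21 with the block. Without control replicate 1, Col5a3 was 0.005944 by library size alone, Col5a2 -0.001859 and Col8a1 -0.00021 with a filter of 1 CPM in 3 libraries, and with the block Col8a1 was -0.07384 and Col7a1 0.01836. With 1 library of the 6 left out, the ranges were -0.10 to 0.63 for Col3a1, -0.10 to 0.30 for Col4a5, -0.23 to 0.39 for Col16a1, -0.12 to 0.14 for Col5a3, -0.30 to 0.35 for Col7a1, -0.49 to 0.33 for Col6a2, -0.31 to 0.05635 for Col9a3, -0.46 to 0.21 for Col18a1 and -0.74 to 0.15 for Col11a2. With 1 of the other 5 left out, they were -0.04058 to 0.15 for Col1a2, -0.01699 to 0.0485 for Col5a2, -0.04288 to 0.39 for Col5a1, -0.07555 to 0.10 for Col8a1, -0.48 to 0.28 for Col7a1, -0.78 to 0.31 for Col27a1, -0.07193 to 0.27 for Col14a1 and -0.17 to 0.10 for Col5a3. Low counts limit the genes near 2 CPM.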

Other observations

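Plod2 and Loxl2, chosen after their values were seen, were highest in control replicate 1, as were 40.7% of all genes tested. In that library 16 of the 23 tested collagens were lowest, against 21.7% of all genes. Plod2, a lysyl hydroxylase of collagen ends, had 89.7, 88.4 and 81.1 CPM in A20 libraries, against 313, 123 and 88.6 CPM in control libraries 1, 2 and 3. Loxl2, a lysyl oxidase of basement membranes, had 116, 104 and 112 CPM in A20 libraries, against 177, 125 and 108 CPM in control libraries. Sparc, a secreted collagen-binding protein, was lowest there, with 3620, 3839 and 3767 CPM in A20 libraries, against 1572, 4538 and 3807 CPM in control libraries.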
